A study of Homo sapiens with 12 samples.

Results

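The 51 genes described here encode the proteins that mark, license, fire and copy DNA replication origins, together with enzymes that supply nucleotides and chaperones that supply histones. They were chosen by name, from their known roles, with earlier results of these data known, and all 51 were found among the 28747 genes of the count table. All 51 passed the filter on low counts in every comparison, and the lowest count of any of them in any library was 69. They were sorted by role into 8 groups.

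The libraries came from DU145, an established line of human prostate cancer cells that models castration-resistant disease. The study asked how a knockdown, labelled shSigma, changes bulk cancer cells and the stem-like cells that grow as tumor spheres. DU145 cells carried a control hairpin (shCtrl) or the knockdown hairpin (shSigma), delivered by lentivirus to make stable lines, and each line was grown attached to plastic (adherent) or as tumor spheres, which form without attachment in serum-free medium at low cell density. This gave 4 groups of 3 libraries each, which the labels call independent replicates. All 12 libraries therefore come from cells that went through transduction, and the sources used here do not state which of the study's knockdown hairpins was sequenced or whether a line is a pool or a clone. Clonal or hairpin-specific differences and the loss of the target cannot be told apart in this design. The p-values measure the spread between these cultures.

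Replication begins when the origin recognition complex (ORC) and its helpers CDC6 and CDT1 load the ring-shaped MCM helicase onto DNA in G1. In S phase kinases convert it to the active CDC45-MCM-GINS helicase, and DNA polymerases, the sliding clamp and its loader then copy both strands. Many of these genes are transcribed at the entry to S phase by E2F factors, so in cultured cells their RNA is widely read as a sign of cycling. In bulk RNA, fewer cells in S phase and less RNA per cell cannot be told apart.

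Because the genes are known for E2F control, their promoters are shown first. RefSeq promoters (GRCh38.p14, 300 bases from 250 before to 50 after the start) were matched by symbol for 45 of the 51 genes. MCM4, MCM5, GINS4, POLD3, RPA2 and RPA3 were not matched. The E2F words searched on both strands were TTCCCGC and, of like form, TTGGCGC, besides the variant TTGCCGC and the variant TTCGCGC, and they can overlap each other. At least 1 of them stood in 31 of the 45 promoters (68.9%), against 20.8% of 10843 promoters of tested genes and 12.9% of all 34943 promoters. CCAAT, the NF-Y word, stood in 62.2% against 36.3% of tested genes, and an E2F word and CCAAT stood together in 44.4% against 7.99%. The GC box word GGGCGG was as frequent here (73.3%) as among tested genes (70.3%), and TTTGAA, the CHR word of many mitotic genes, stood in 1 promoter (2.22%) against 9.41%. A word is a match of letters and no measured binding. Below are 170 bases, from 150 before to 20 after the start, of the 4 members with the lowest and the 3 with the highest log2 fold change after knockdown in adherent cells among those matched. Capitals mark the E2F words, and each sequence reads 5′ to 3′ on the strand of its gene.
CLSPN (chr1:35769959-35770128, minus strand): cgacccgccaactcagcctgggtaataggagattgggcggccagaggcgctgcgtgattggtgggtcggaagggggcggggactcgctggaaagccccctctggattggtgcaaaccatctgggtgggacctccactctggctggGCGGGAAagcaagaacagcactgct
ORC1 (chr1:52404404-52404573, minus strand): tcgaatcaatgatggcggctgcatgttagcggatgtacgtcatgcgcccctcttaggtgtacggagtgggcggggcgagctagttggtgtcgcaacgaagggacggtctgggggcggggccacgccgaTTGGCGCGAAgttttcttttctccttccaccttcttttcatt
GINS2 (chr16:85688935-85689104, minus strand): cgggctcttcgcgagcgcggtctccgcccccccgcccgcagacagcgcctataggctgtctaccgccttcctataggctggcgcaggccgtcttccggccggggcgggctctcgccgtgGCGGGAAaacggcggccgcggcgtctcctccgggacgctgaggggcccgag
MCM10 (chr10:13161408-13161577, plus strand): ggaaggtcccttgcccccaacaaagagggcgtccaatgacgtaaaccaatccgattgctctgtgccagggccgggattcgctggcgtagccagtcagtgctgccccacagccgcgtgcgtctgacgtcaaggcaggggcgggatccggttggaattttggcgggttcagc
POLD1 (chr19:50384173-50384342, plus strand): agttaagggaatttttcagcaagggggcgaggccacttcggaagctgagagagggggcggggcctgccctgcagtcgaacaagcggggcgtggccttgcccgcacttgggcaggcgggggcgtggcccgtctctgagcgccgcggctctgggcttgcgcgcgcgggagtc
ORC4 (chr2:148021532-148021701, minus strand): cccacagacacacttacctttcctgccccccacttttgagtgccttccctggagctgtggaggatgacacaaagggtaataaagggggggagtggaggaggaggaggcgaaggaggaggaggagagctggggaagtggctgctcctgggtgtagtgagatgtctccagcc
POLA1 (chrX:24693768-24693937, plus strand): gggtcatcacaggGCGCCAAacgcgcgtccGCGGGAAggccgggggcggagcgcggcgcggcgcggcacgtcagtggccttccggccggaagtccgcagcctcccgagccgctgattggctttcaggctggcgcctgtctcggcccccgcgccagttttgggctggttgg

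In CLSPN, ORC1 and GINS2 the E2F words begin at most 31 bases before the start, and in ORC1 a pair of words overlaps. MCM10, with the fourth lowest value of those shown, holds none of the words searched in its 300 bases, and neither do POLD1 and ORC4. Sequences of like form outside these words were not searched. POLA1 holds 3 in its 300 bases, of which the stretch above shows 2, and was among the members that did not pass the test. Of the 37 matched members that fell in adherent cells 28 hold an E2F word, and of the 8 that did not pass the test 3 do. The 3 are CDT1, POLA1 and POLA2, and CDT1 and POLA2 had negative values with a wide spread between libraries. The split is therefore not one of genes that fell and genes that did not, and it was not tested.

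Total counts were 16472722 to 26957777 per library, and every pair of replicates differed beyond counting noise, with a chi-square per gene of 2.65 to 42.4. CPM are counts per 1e+06 counts of the TMM-scaled library. The epithelial keratins KRT8 and KRT18 had at least 5262 counts in every library. KLK3, PTPRC, CD3E and DCN had at most 4, and PECAM1, VWF and ALB at most 12. COL1A1 had 67 to 494 counts. EPCAM and CDH1, both epithelial adhesion genes, ranged from 579 to 12004 and from 223 to 15279 counts and were lowest with shSigma in adherent cells. Of the 5 epithelial genes listed, EPCAM (-2.99) and CDH1 (-1.23) were lower after knockdown in adherent cells, and KRT8 (0.76), KRT18 (0.58) and KRT19 (1.91) were higher. In spheres EPCAM (-3.31), CDH1 (-4.71), KRT8 (-0.21) and KRT18 (-0.44) were lower and KRT19 did not pass (0.13). The part of these differences in the results was not tested.

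Of the TMM-scaled library, the 51 genes together made up 0.585% in adherent shCtrl cells and 0.353% in adherent shSigma cells. In tumor spheres they made up 0.4% with shCtrl and 0.351% with shSigma. Their summed level was 5847.8 ± 95.9 CPM (SD, n = 3), 3532.1 ± 144.2 CPM, 4003.2 ± 138.2 CPM and 3505.2 ± 65.1 CPM in the same order. The control cells on plastic thus stood above the other groups, and the sphere shSigma libraries lay within the range of the adherent shSigma libraries. For 46 of the 51 genes the highest group mean was in adherent shCtrl, and for 37 every adherent shCtrl library lay above all 9 other libraries. The exceptions were ORC2 and POLA1 (highest in adherent shSigma), ORC4 (tumor sphere shCtrl), and ORC5 and POLD1 (tumor sphere shSigma). The same counts were not made over all genes, so how unusual they are was not assessed.

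**Figure D1:**
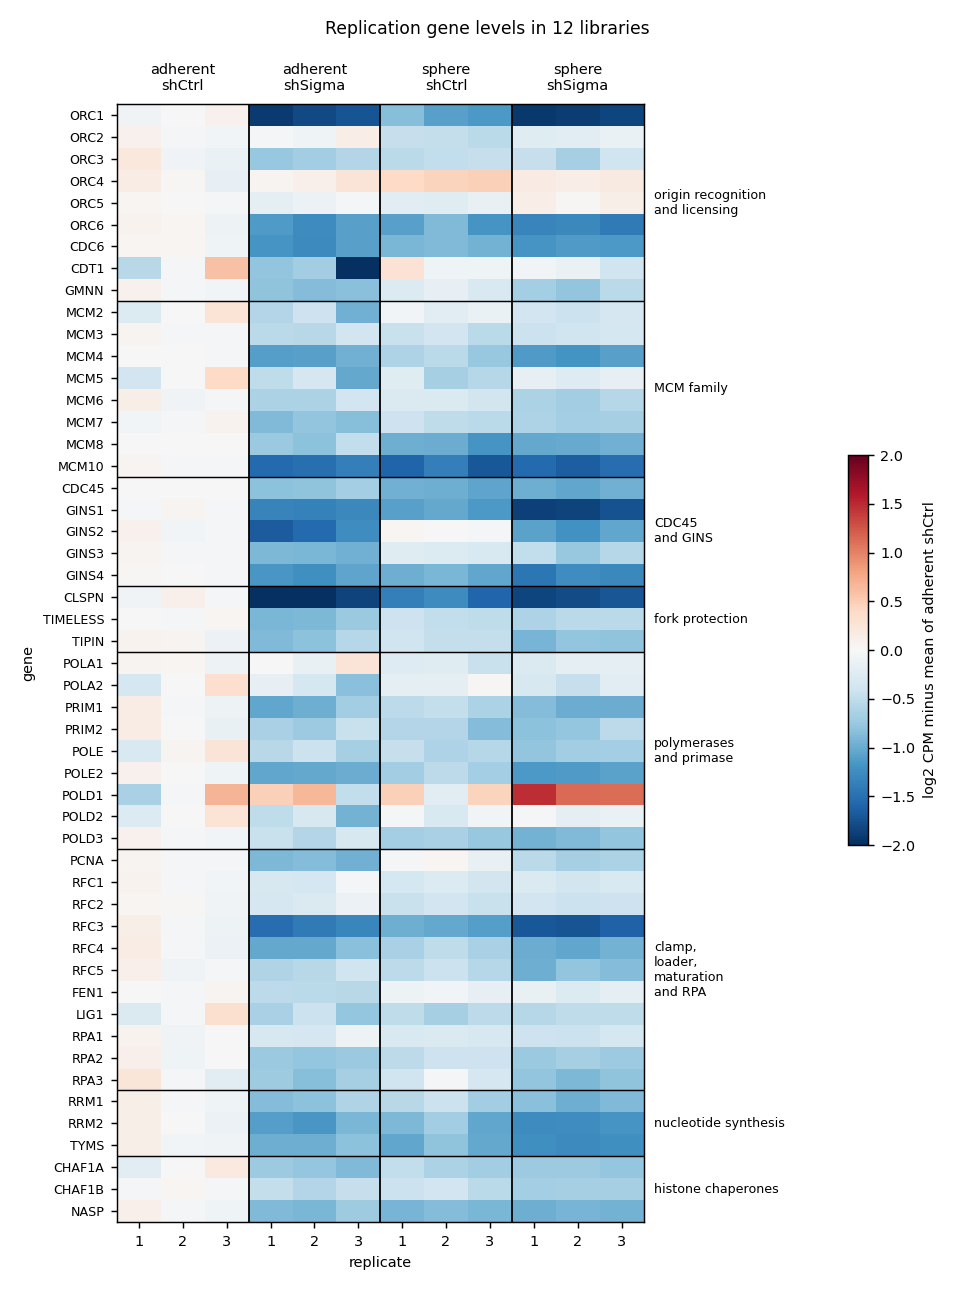
Level of each of the 51 genes in the 12 libraries as log2 CPM minus the mean of the 3 adherent shCtrl libraries, with genes ordered by role and libraries by group; the colour scale ends at 2 in either direction. Most genes are blue outside adherent shCtrl, ORC2, ORC5 and POLA1 stay pale, ORC4 is pale red in the sphere controls, POLD1 is red in tumor sphere shSigma, and CDT1, MCM5 and POLD1 vary within the adherent groups.

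Per length of the canonical transcript, the most abundant RNA in adherent shCtrl cells was TYMS, thymidylate synthase, at 203 ± 15.2 RPKM (CPM per kilobase of transcript). PCNA, the sliding clamp, followed at 134 ± 4.99 RPKM and NASP, a histone chaperone, at 108 ± 6.86 RPKM. MCM3 and MCM4 stood at 105 ± 3.09 and 104 ± 1.75 RPKM, which do not differ beyond their spread from each other or from NASP. At the low end were POLA2 (2.86 ± 0.709 RPKM), ORC4 (5.37 ± 0.565 RPKM) and POLA1 (5.88 ± 0.364 RPKM). Among the 6 subunits of the MCM2 to MCM7 helicase, MCM5 was lowest at 30.8 ± 8.32 RPKM, with MCM2 next at 37.5 ± 7.01 RPKM, and these overlap in their spread.

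After knockdown in adherent cells, 42 of the 51 genes were lower and 0 were higher at an adjusted p under 0.05 (edgeR's quasi-likelihood test, Benjamini-Hochberg adjustment over 13764 genes). No member was higher at an unadjusted p under 0.05 or by DESeq2 (0 in each case). Among all genes tested, 27.7% were lower and 22.3% higher. The median log2 fold change of the members was -0.83, against -0.01 over all genes, and 49 of 51 values were below 0. Past a log2 fold change of 1 as well were 14 members, all lower, where the background is 6.13% lower and 7.59% higher. In 44 members the 3 shSigma libraries lay below the 3 shCtrl libraries, against 27.8% of all genes, and in 0 they lay above, against 30.1%. The deepest values were those of CLSPN (-2.14), ORC1 (-1.92), GINS2 (-1.59), MCM10 (-1.56), RFC3 (-1.49) and GINS1 (-1.41). The 9 that did not pass were ORC2, ORC4, ORC5, CDT1, MCM5, POLA1, POLA2, POLD1 and POLD2. Of the 42 calls, 36 held whichever library was left out.

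With knockdown in tumor spheres 29 members were lower and 4 were higher (ORC2, ORC5, MCM5 and POLD1), where 30.9% of the 13774 genes tested were lower and 30.2% higher. The median log2 fold change was -0.24, with values from -1.13 (GINS2) to 0.99 (POLD1). GINS2 alone passed a log2 fold change of 1 as well, against 7.17% of all genes lower and 5.94% higher. The libraries of the groups did not overlap for 33 members that were lower and 3 that were higher, against 33.3% and 33.5% of all genes. The adherent and tumor sphere comparisons share no library. Of the 42 genes that fell in adherent cells 28 also fell in spheres (66.7%), which is 96.6% of the 29 that fell in spheres. The other 14 were not called in spheres, and ORC4 was called lower in spheres alone. This overlap was not computed over all genes. Since 42 of the 51 genes were lower in adherent cells, a high share among the sphere calls is not by itself a sign of agreement.

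Whether the knockdown difference itself differed between cultures was tested by an interaction term fitted to the 12 libraries. It was positive, meaning a more positive knockdown difference in tumor spheres, for 34 members and negative for 1, against 12.7% and 15.6% of the 14175 genes tested. Its median was 0.55 among the members and -0.03 over all genes, and 50 of the 51 values were above 0. CLSPN (1.69 ± 0.15 SE, adjusted p = 1.75e-06) and MCM10 (1.47 ± 0.12 SE, adjusted p = 1.51e-06) passed 1 on the log2 scale, against 2.50% of genes above 1 and 6.04% below -1, and ORC4 was the exception (-0.42 ± 0.12 SE, adjusted p = 0.0176). The call of ORC4 was lost without any library other than adherent shCtrl replicate 1 and adherent shSigma replicate 1, with adjusted p of 0.0513 to 0.0889. Of the other interaction calls, those of MCM5, ORC2, CHAF1B and RRM1 were lost without tumor sphere shCtrl replicate 3 (adjusted p = 0.0849, 0.0873, 0.0896 and 0.0592) and without adherent shSigma replicate 1 (0.0616, 0.0892, 0.056 and 0.0576). MCM5, ORC2 and CHAF1B also lost theirs without adherent shCtrl replicate 2 or tumor sphere shSigma replicate 2 or 3, ORC2 and CHAF1B without adherent shSigma replicate 2, ORC2 without tumor sphere shCtrl replicate 1, MCM5 without adherent shCtrl replicate 3 or tumor sphere shCtrl replicate 2, and MCM5 and CHAF1B without tumor sphere shSigma replicate 1, with adjusted p of 0.0534 (CHAF1B) to 0.0978 (ORC2). The 30 other calls held whichever library was left out. The adherent and sphere controls themselves differed in these genes, as described further on, and the interaction is relative to each culture's own control.

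Among the origin recognition subunits, ORC1 stood apart from ORC2 to ORC5. ORC1, the ATPase subunit that is replaced at each cell cycle, was at 44.05, 45.98 and 49.3 CPM in adherent shCtrl and 11.9, 12.96 and 13.6 CPM in adherent shSigma libraries. In tumor spheres it was at 25.6, 21.6 and 20.6 CPM in shCtrl and 11.8, 12.1 and 12.6 CPM in shSigma libraries. The groups did not overlap within either culture, and the shSigma libraries of both cultures lay at about the same level. ORC1 fell by 1.92 on the log2 scale in adherent cells (SE 0.08, adjusted p = 6.13e-06) and had a log2 fold change of -0.90 ± 0.10 (SE, adjusted p = 1.21e-05) in spheres. The 40 nearest tested genes had a median of -0.53 and -0.52 in these comparisons, and with it subtracted ORC1 was at -1.39 and -0.37. Here and below, such medians are given relative to the median of these neighbour medians over all tested genes. ORC2 to ORC5, stable subunits of the core complex, had a median of -0.12 in adherent cells, where only ORC3 was called (-0.76 ± 0.11 SE, adjusted p = 0.00122).

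ORC2 was at 82.6, 76.1 and 74.8 CPM and 75.9, 73.3 and 85.1 CPM in adherent shCtrl and shSigma libraries, which overlap. In spheres it rose from 56.4, 55.6 and 53.6 CPM to 65.99, 67.3 and 71.1 CPM (0.30 ± 0.06 SE, adjusted p = 0.000953). ORC5 was at 30.8, 29.7 and 29.5 CPM and 26.2, 27.6 and 29.04 CPM in adherent libraries. In spheres ORC5 rose from 25.8, 25.4 and 26.96 CPM to 32.8, 30.5 and 32.6 CPM (0.29 ± 0.07 SE, adjusted p = 0.00407), with no overlap of the groups. Its 40 nearest genes on chromosome 7 had a median of 0.70 in spheres, and with it subtracted ORC5 was lower (-0.41, adjusted p = 0.000474). ORC4 was at 38.7, 35.4 and 31.3 CPM against 36.3, 37.5 and 41.9 CPM in adherent cells, with overlap, and fell in spheres from 46.2, 47.7 and 48.98 CPM to 39.5, 38.3 and 39.7 CPM (-0.29 ± 0.06 SE, adjusted p = 0.00197).

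ORC6, the smallest ORC subunit, and the licensing factors followed ORC1. ORC6 was at 59.7, 58.8 and 52.98 CPM against 25.8, 23.5 and 26.6 CPM in adherent cells (-1.24 ± 0.09 SE, adjusted p = 4.09e-05). In spheres ORC6 was at 26.6, 30.8 and 24.8 CPM against 22.5, 23.2 and 21.2 CPM (-0.30 ± 0.09 SE, adjusted p = 0.0132), a call that was lost without tumor sphere shSigma replicate 3 (adjusted p = 0.0593). CDC6, the loading ATPase, was at 101, 101 and 92.6 CPM against 43.1, 40.2 and 45.97 CPM in adherent cells, and at 52.1, 52.8 and 50.9 CPM against 43.2, 44.5 and 44.1 CPM in spheres. The groups were separate in both cultures, with log2 fold changes of -1.25 ± 0.08 (SE, adjusted p = 2.31e-05) and -0.25 ± 0.06 (SE, adjusted p = 0.00395). GMNN, geminin, the inhibitor of CDT1, fell in both (-0.91 and -0.43). CDT1 itself was at 10.9, 15.8 and 24.3 CPM in adherent shCtrl and 9.09, 9.78 and 3.33 CPM in adherent shSigma libraries, so that its log2 fold change of -1.24 had a standard error of 0.48 and did not pass (adjusted p = 0.0754).

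**Figure D2:**
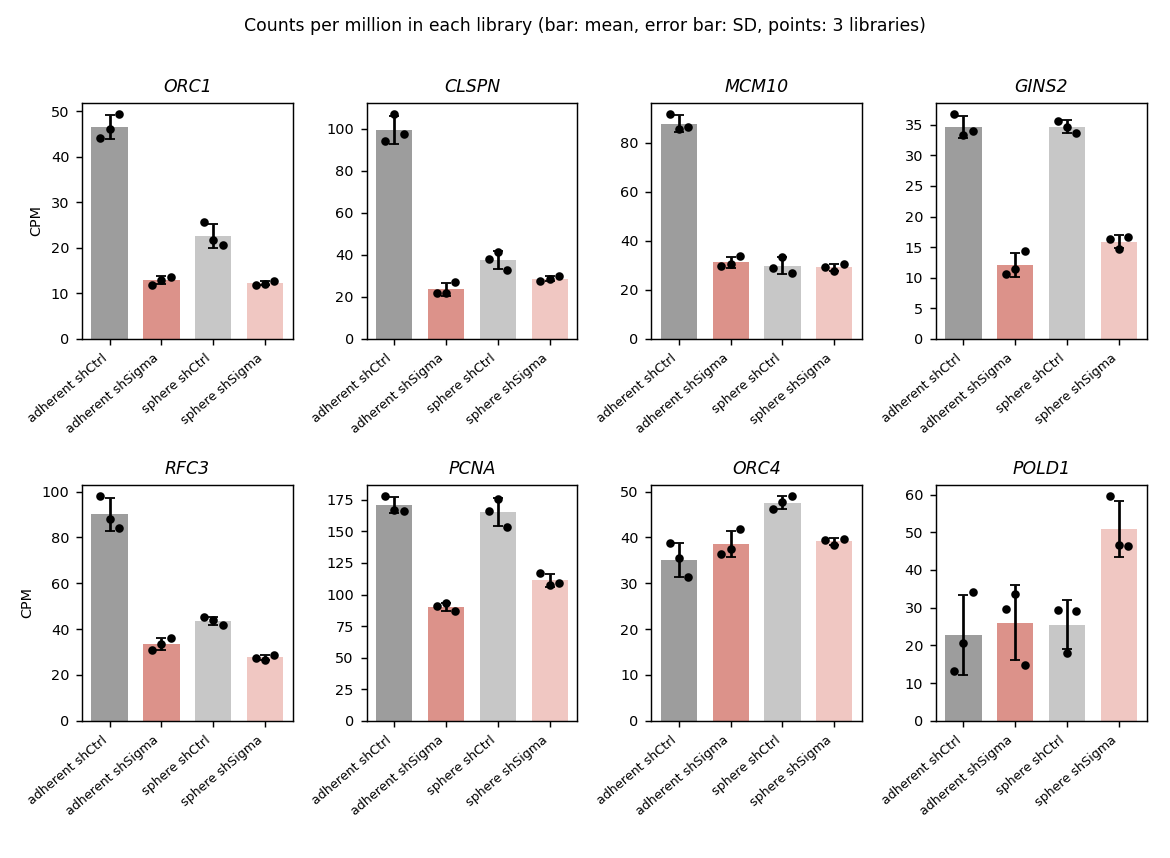
CPM of 8 genes in each library by group, with the mean as a bar from 0, the SD as an error bar and the 3 libraries as points. ORC1, CLSPN, MCM10 and RFC3 are highest in adherent shCtrl, GINS2 and PCNA are at like levels in both shCtrl groups, ORC4 is highest in tumor sphere shCtrl, and POLD1 is highest in tumor sphere shSigma.

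All of the MCM2 to MCM7 helicase subunits had values below 0 in adherent cells, with a median of -0.69, and MCM4 fell most (-1.11 ± 0.06 SE, adjusted p = 1.41e-05). MCM3 (-0.56), MCM6 (-0.62), MCM7 (-0.90) and MCM2 (-0.70) also fell, and MCM5 did not pass (-0.68 ± 0.26 SE, adjusted p = 0.0702). MCM2 lost its call without adherent shCtrl replicate 2 or 3 or adherent shSigma replicate 1, with adjusted p of 0.0748, 0.069 and 0.0759. In spheres the subunits split. MCM4 (-0.51), MCM6 (-0.33), MCM2 (-0.24) and MCM7 (-0.18) fell, MCM3 did not pass (0.057) and MCM5 rose (0.28 ± 0.10 SE, adjusted p = 0.0306).

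MCM5 was at 79.3, 104 and 137 CPM against 72.9, 81.99 and 51.1 CPM in adherent cells and at 88.2, 65.5 and 69.8 CPM against 93.1, 87.2 and 92.4 CPM in spheres. The groups overlap in adherent cells, and in spheres shCtrl replicate 1 lies within the range of the shSigma libraries. The sphere call was lost without shCtrl replicate 2 or 3 or shSigma replicate 1 or 3 (adjusted p = 0.0604, 0.0982, 0.0662 and 0.06). The 40 nearest genes had a median of 0.48 in spheres, and with it subtracted MCM5 was at -0.19 (adjusted p = 0.122). In adherent cells the subtracted value of MCM5 was called (-1.18, adjusted p = 0.0122). The same subtraction took MCM7 to -1.60 in adherent cells and -0.78 in spheres, both called (adjusted p = 5e-06 and 1.84e-07), and MCM4 to -0.16 in spheres (adjusted p = 0.0338). Unsubtracted, MCM7 lost its sphere call without shCtrl replicate 1 or shSigma replicate 3 (adjusted p = 0.0571 and 0.0539).

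MCM10, which is no part of the helicase ring and helps to activate it, was at 91.7, 85.5 and 86.4 CPM in adherent shCtrl libraries. It was at 29.5, 30.5 and 33.6 CPM in adherent shSigma libraries, a log2 fold change of -1.56 ± 0.07 (SE, adjusted p = 8.16e-06). In spheres MCM10 was at 28.8, 33.6 and 26.8 CPM in shCtrl and 29.5, 27.7 and 30.4 CPM in shSigma libraries, which overlap (-0.028 ± 0.09 SE, adjusted p = 0.798). The 3 libraries of the adherent control were far above the other 9. The 40 nearest genes had a median of -0.02 in adherent cells and 0.41 in spheres, and with it subtracted the sphere value of MCM10 was called (-0.44, adjusted p = 0.00128). MCM8, a related helicase of recombination repair, was also highest in the adherent control, with 91.8, 90.3 and 91.7 CPM against 54.2, 51.5 and 64.9 CPM in adherent cells (-0.75 ± 0.08 SE, adjusted p = 0.000225). Its sphere libraries were at 46.3, 45.8 and 39.9 CPM and 44.5, 44.98 and 46.8 CPM, which overlap.

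The 4 GINS subunits, which hold the helicase together at the fork, fell together in both cultures. In adherent cells each passed a log2 fold change of 1, with a median of -1.32, and in spheres the median was -0.56. GINS1 was at 61.3, 64.5 and 61.1 CPM against 24.2, 24.1 and 25.3 CPM in adherent cells (-1.41 ± 0.07 SE, adjusted p = 1.03e-05). In spheres GINS1 was at 29.2, 30.5 and 27.9 CPM against 16.7, 16.9 and 18.2 CPM (-0.76 ± 0.08 SE, adjusted p = 5.8e-06), its lowest level of the 4 groups. GINS3 was at 32.1, 30.4 and 29.8 CPM against 16.2, 16.1 and 15.6 CPM in adherent cells (-1.01 ± 0.09 SE, adjusted p = 9.64e-05) and at 25.8, 25.3 and 24.7 CPM against 21.6, 17.96 and 20.6 CPM in spheres (-0.34 ± 0.09 SE, adjusted p = 0.00477). GINS4 followed with -1.22 and -0.36. CDC45, their partner, fell in adherent cells (-0.84 ± 0.06 SE, adjusted p = 5.2e-05) and was at 30.6, 30.1 and 28.6 CPM against 30.2, 28.8 and 30.3 CPM in spheres, which overlap (adjusted p = 0.995).

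GINS2 differed from the other GINS genes in its sphere control. It was at 36.8, 33.4 and 34.01 CPM in adherent shCtrl and 35.7, 34.7 and 33.7 CPM in tumor sphere shCtrl libraries, which overlap. With knockdown GINS2 was at 10.6, 11.4 and 14.3 CPM in adherent libraries and 16.3, 14.7 and 16.7 CPM in sphere libraries. The log2 fold changes were -1.59 ± 0.11 (SE, adjusted p = 4.3e-05) and -1.13 ± 0.08 (SE, adjusted p = 2.31e-07), and the interaction did not pass (0.39 ± 0.15 SE, adjusted p = 0.0624). GINS2 shares exon bases with GSE1 on the opposite strand, and the use of strand in counting is not stated.

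Of the fork protection genes, CLSPN, claspin, which carries the checkpoint signal from stalled forks, had the largest fall of all members in adherent cells. It was at 94.2, 107 and 97.5 CPM against 21.8, 21.8 and 27.3 CPM there (-2.14 ± 0.10 SE, adjusted p = 7.77e-06). The 40 nearest genes had a median of -0.49, and with it subtracted CLSPN was at -1.65. In spheres CLSPN was at 38.1, 41.2 and 32.9 CPM against 27.5, 28.5 and 29.99 CPM, with separate groups and a smaller difference (-0.38 ± 0.09 SE, adjusted p = 0.00233). Its partners TIMELESS (-0.92 ± 0.06 SE, adjusted p = 2.44e-05) and TIPIN (-0.83 ± 0.10 SE, adjusted p = 0.000481), which bind each other at the fork, fell in adherent cells, and in spheres TIPIN fell (-0.40) while TIMELESS did not pass (-0.095).

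Of the 9 polymerase and primase genes 5 were lower in adherent cells. POLE2, the second subunit of the leading-strand polymerase ε, fell from 111, 105 and 98.98 CPM to 50.8, 51.4 and 52.6 CPM in adherent cells (-1.09 ± 0.08 SE, adjusted p = 3.7e-05). In spheres POLE2 fell from 64.9, 72.8 and 65.3 CPM to 47.2, 47.7 and 49.96 CPM (-0.49 ± 0.07 SE, adjusted p = 4.69e-05), a call that was lost once the median of its 40 nearest genes (-0.33) was subtracted (-0.16, adjusted p = 0.0542). The primase subunits PRIM1 (-0.98) and PRIM2 (-0.69) fell in adherent cells, and PRIM1 also fell in spheres (-0.41). PRIM1 shares exon bases with NACA on the same strand. Their partners in the primase complex, POLA1 (-0.023 ± 0.11 SE, adjusted p = 0.874) and POLA2 (-0.53 ± 0.25 SE, adjusted p = 0.113), did not pass in adherent cells and did not pass in spheres (0.093 and -0.24).

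Polymerase δ, which copies the lagging strand, moved in different directions. Its catalytic subunit POLD1 was at 13.3, 20.6 and 34.2 CPM in adherent shCtrl and 29.7, 33.6 and 14.8 CPM in adherent shSigma libraries, groups that overlap widely (0.15 ± 0.44 SE, adjusted p = 0.795). In spheres POLD1 was at 29.5, 17.9 and 29.03 CPM in shCtrl and 59.6, 46.7 and 46.4 CPM in shSigma libraries, which do not overlap (0.99 ± 0.18 SE, adjusted p = 0.000961). This was the largest rise among the members, and its call was lost in a fit of all 12 libraries with a shared spread (adjusted p = 0.0565). POLD1 shares exon bases with another annotated gene on the same strand. POLD3, an accessory subunit, was at 99.7, 91.3 and 90.2 CPM against 68.3, 62.2 and 74.9 CPM in adherent cells (-0.52 ± 0.08 SE, adjusted p = 0.00147). In spheres POLD3 was at 58.5, 59.5 and 55.4 CPM against 48.3, 50.3 and 54.04 CPM (-0.19 ± 0.07 SE, adjusted p = 0.0264), and the call was lost without shCtrl replicate 1, shSigma replicate 1 or shSigma replicate 2 (adjusted p = 0.0656, 0.128 and 0.0808). POLD2 did not pass in either culture (adjusted p = 0.0505 and 0.978). POLE fell in adherent cells (-0.62 ± 0.15 SE, adjusted p = 0.0113) and in spheres (-0.18 ± 0.06 SE, adjusted p = 0.0245). Its adherent call was lost without shCtrl replicate 2 or shSigma replicate 1 (adjusted p = 0.0533 and 0.0557), and its sphere call without any library other than shCtrl replicate 2 (adjusted p of up to 0.109).

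All 11 genes of the clamp, its loader, Okazaki fragment maturation and RPA fell in adherent cells, and 6 of them fell in spheres. PCNA, the sliding clamp, was at 178, 167 and 167 CPM against 91.1, 93.00 and 86.9 CPM in adherent cells (-0.98 ± 0.08 SE, adjusted p = 5.72e-05). In spheres PCNA was at 166, 176 and 154 CPM against 117, 107 and 109 CPM (-0.57 ± 0.06 SE, adjusted p = 6.63e-06), and the groups are separate in both cultures. RFC3, a small subunit of the clamp loader, fell most, from 98.04, 88.2 and 84.2 CPM to 30.9, 33.3 and 36.2 CPM in adherent cells (-1.49 ± 0.09 SE, adjusted p = 2.34e-05) and from 45.3, 43.9 and 41.6 CPM to 27.6, 26.7 and 28.9 CPM in spheres (-0.66 ± 0.07 SE, adjusted p = 7.32e-06).

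The other loader subunits fell less. RFC4 fell in both cultures (-1.04 and -0.39). RFC5 was at 91.1, 80.4 and 82.7 CPM against 55.6, 57.3 and 64.3 CPM in adherent cells (-0.59 ± 0.08 SE, adjusted p = 0.000744) and at 58.9, 62.8 and 56.8 CPM against 42.7, 48.8 and 46.4 CPM in spheres (-0.38 ± 0.07 SE, adjusted p = 0.000671). RFC1, the large subunit, and RFC2 had the weakest adherent calls of the loader (-0.30 and -0.31), and neither was called in spheres. With the median of the 40 nearest genes subtracted RFC1 was at -0.07 in adherent cells (adjusted p = 0.513) and 0.31 in spheres (adjusted p = 0.000273), and RFC2 at -1.20 (adjusted p = 3.04e-05) and -0.59 (adjusted p = 6.36e-06). Each of these 2 adherent calls was lost without shCtrl replicate 1 or 2 or shSigma replicate 1 or 2, with adjusted p of 0.164 to 0.26 for RFC1 and 0.0933 to 0.175 for RFC2. RPA1, the large subunit of the single-strand binding complex RPA (-0.31), lost its call without the same libraries (adjusted p = 0.0774 to 0.164). RPA2 (-0.82 and -0.26) and RPA3 (-0.82 and -0.60), the smaller subunits, fell in both cultures.

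FEN1, the flap nuclease that trims Okazaki fragments, was at 100.003, 98.3 and 104 CPM against 69.8, 69.3 and 68.5 CPM in adherent cells (-0.61 ± 0.06 SE, adjusted p = 0.000191). In spheres FEN1 was at 94.4, 97.5 and 89.6 CPM against 90.5, 83.8 and 88.2 CPM and did not pass (adjusted p = 0.127). LIG1, the ligase that seals them, fell in adherent cells (-0.70 ± 0.17 SE, adjusted p = 0.0124), a call that was lost without shSigma replicate 1 (adjusted p = 0.0617), and did not pass in spheres (0.026).

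The 3 nucleotide synthesis genes fell in both cultures. RRM2, the regulated subunit of ribonucleotide reductase, was at 199, 182 and 169.6 CPM against 84.9, 81.6 and 96.7 CPM in adherent cells (-1.13 ± 0.09 SE, adjusted p = 6.28e-05). In spheres RRM2 was at 97.6, 112 and 88.7 CPM against 76.1, 77.3 and 80.3 CPM (-0.36 ± 0.08 SE, adjusted p = 0.00168), again with separate groups. RRM1, the large subunit, had -0.83 and -0.35, and TYMS, which makes thymidylate, had -0.995 and -0.29.

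The histone chaperones fell in adherent cells, and of these only CHAF1B fell in spheres (-0.23 ± 0.07 SE, adjusted p = 0.0112). NASP, which carries H3 and H4, was at 371, 343 and 327 CPM against 187, 183 and 212 CPM in adherent cells (-0.90 ± 0.08 SE, adjusted p = 9.87e-05). Its 40 nearest genes had a median of -0.63 there, and with it subtracted NASP was at -0.27. In spheres NASP was at 182, 189.7 and 184 CPM against 176, 183 and 180.2 CPM, which overlap. CHAF1A, the large subunit of the assembly factor CAF-1, fell in adherent cells (-0.87) and did not pass in spheres (-0.14).

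The culture comparisons asked how tumor spheres differ from adherent cells with the same hairpin. They share libraries with the knockdown comparisons, so their values are set side by side and no overlap is computed. With shCtrl, 40 members were lower in spheres and 1, ORC4, was higher, against 26.3% and 27.4% of the 13800 genes tested. The median log2 fold change was -0.51, and 8 members were lower past a log2 fold change of 1 with 0 higher, against 4.96% and 10.8%. Libraries did not overlap for 41 members lower and 1 higher in spheres, against 30.8% and 31.9%. The lowest were MCM10 (-1.57 ± 0.09 SE, adjusted p = 7.7e-06), CLSPN (-1.41 ± 0.10 SE, adjusted p = 1.52e-05), GINS1 (-1.09 ± 0.07 SE, adjusted p = 1.23e-05) and ORC6 (-1.06 ± 0.10 SE, adjusted p = 8.04e-05). ORC4 rose by 0.44 ± 0.09 (SE, adjusted p = 0.00491). PCNA (-0.047), FEN1 (-0.11), MCM2 (-0.16), MCM5 (-0.52), RPA3 (-0.26), CDT1, GINS2, POLA2, POLD1 and POLD2 did not pass. Of the 41 calls 36 held whichever library was left out. Those of ORC5, GMNN, GINS3 and POLA1 were lost without adherent replicate 2 or sphere replicate 3, with adjusted p of 0.123 and 0.0817 for ORC5, 0.0559 and 0.079 for GMNN, 0.0505 and 0.0567 for GINS3, and 0.0773 and 0.0752 for POLA1. ORC5 also lost it without adherent replicate 1 (0.0527) or sphere replicate 1 (0.123) or 2 (0.138), GMNN without sphere replicate 1 (0.0656), and LIG1 without sphere replicate 2 (0.0523).

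With shSigma, 8 members were lower in spheres and 8 were higher, against 25.2% and 21.9% of the 13622 genes tested, and the median was -0.07. Past a log2 fold change of 1 were 0 lower and 0 higher members, against 3.56% and 5.76%, and libraries did not overlap for 18 lower and 14 higher members, against 32.5% and 28.3%. The called members that were lowest were GINS1 (-0.48 ± 0.07 SE, adjusted p = 0.00139), POLD3 (-0.40 ± 0.07 SE, adjusted p = 0.00296), RFC5 (-0.34 ± 0.07 SE, adjusted p = 0.00661) and MCM8 (-0.30 ± 0.08 SE, adjusted p = 0.0151). POLD1 (0.98) and CDT1 (0.95) had the highest values and did not pass. The highest called were GINS2 (0.41 ± 0.12 SE, adjusted p = 0.0202), FEN1 (0.36 ± 0.06 SE, adjusted p = 0.00144), GINS3 (0.35 ± 0.09 SE, adjusted p = 0.0172) and PCNA (0.32 ± 0.06 SE, adjusted p = 0.00443). TIMELESS (0.31), CLSPN (0.30), ORC5 (0.23) and MCM7 (0.20) were also higher, and TYMS (-0.30), RFC3 (-0.25), CDC45 (-0.20) and ORC2 (-0.17) also lower. Only 7 of these 16 calls, those of GINS1, POLD3, RFC5, TYMS, FEN1, PCNA and TIMELESS, held whichever library was left out. Without sphere replicate 1, ORC2, ORC5, MCM8, CDC45, GINS2, GINS3, CLSPN and RFC3 lost theirs, with adjusted p of 0.0507 (CLSPN) to 0.14 (ORC2). Without sphere replicate 2, ORC2, MCM8, CDC45, CLSPN and RFC3 did (0.0548 for MCM8 to 0.126 for ORC2), and without sphere replicate 3, ORC2, ORC5, CDC45, GINS2, GINS3 and CLSPN did (0.0644 for GINS3 to 0.096 for CLSPN). Without adherent replicate 1, ORC2, ORC5, MCM7, CDC45, GINS2 and CLSPN did (0.0601 for MCM7 to 0.102 for ORC2), without adherent replicate 2, CDC45, GINS2, CLSPN and RFC3 did (0.0545 for GINS2 to 0.0757 for CLSPN), and without adherent replicate 3, ORC2 did (0.0605).

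**Figure D3:**
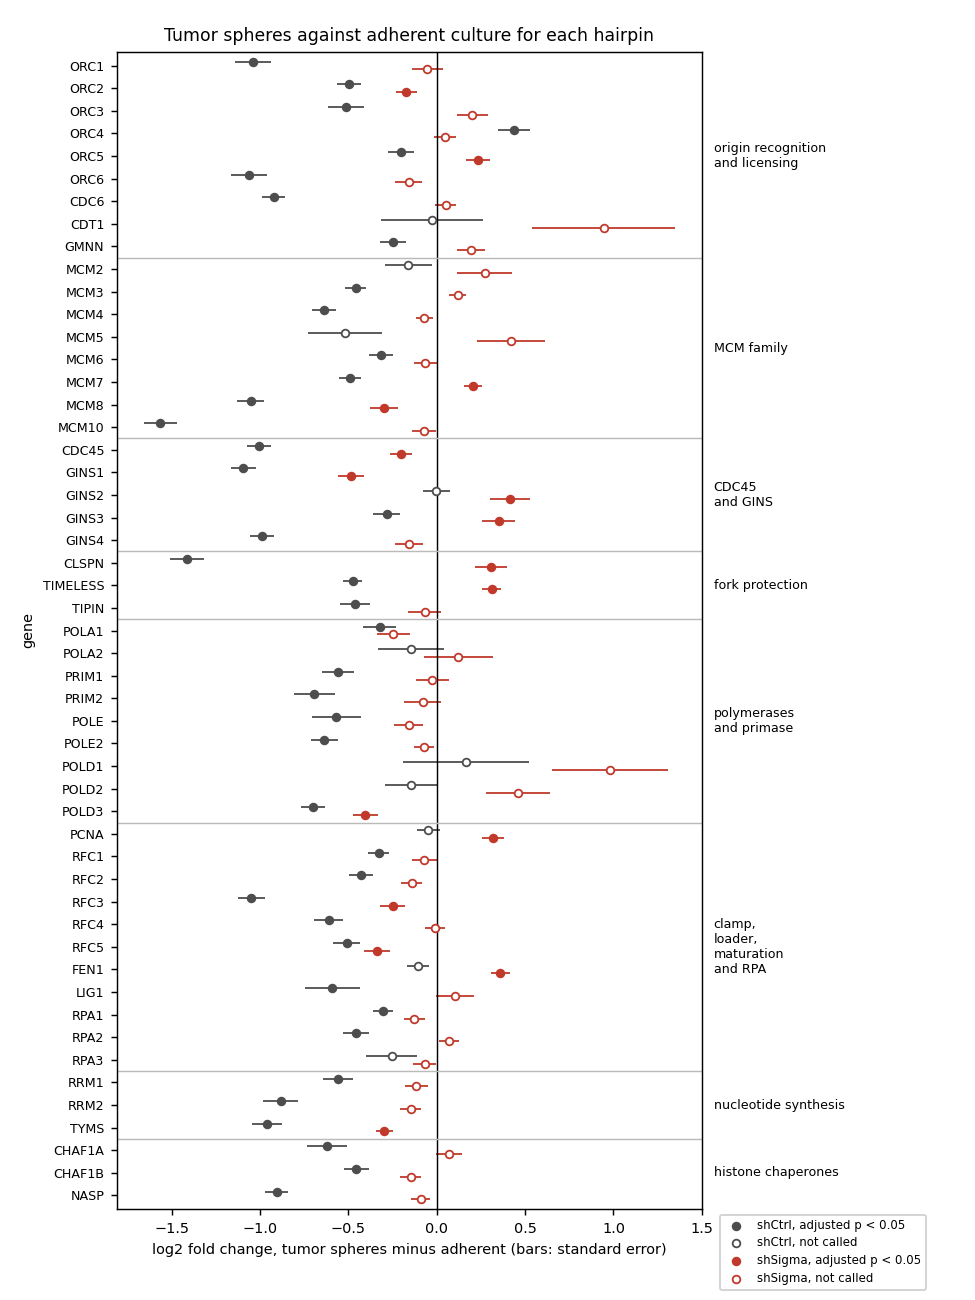
Log2 fold change of each gene between tumor spheres and adherent cells (spheres minus adherent) with shCtrl (grey) and shSigma (red), with standard errors as bars; filled points passed an adjusted p under 0.05. The shCtrl values run from -1.57 for MCM10 to 0.44 for ORC4, and most shSigma values lie closer to 0, with long bars for CDT1 and POLD1.

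Another 35 genes of the replication pathway were listed by role and are not among the 51. In adherent cells 19 of them were lower (54.3%, against 27.7% of all genes) and 2 higher (5.71%, against 22.3%), with a median of -0.69. In spheres 15 were lower (42.9%, against 30.9%) and 10 higher (28.6%, against 30.2%), with a median of -0.08, so the share of higher calls was near that of all genes. CDC25A, the phosphatase that activates CDK2, fell most in both (-1.89 ± 0.08 SE, adjusted p = 7.68e-06, and -1.04 ± 0.09 SE, adjusted p = 1.05e-06). DSCC1 (-1.55 and -0.88), of the alternative clamp loader, and WDHD1 (-1.39 and -0.80), which ties polymerase α to the helicase, also fell in both. DNA2, a nuclease and helicase, fell in adherent cells (-1.14) and did not pass in spheres (-0.083), while CDC7, the kinase that fires origins, fell in both (-1.07 and -0.79). TICRR, which brings CDC45 to origins, fell in adherent cells (-0.80) and rose in spheres (0.40), with an interaction of 1.14 ± 0.16 (SE, adjusted p = 0.00015). Between cultures with shCtrl 21 of the 35 were lower in spheres (60.0%, against 26.3%) and 3 higher (8.57%, against 27.4%). With shSigma 9 were lower (25.7%, near the 25.2% of all genes) and 5 higher (14.3%, against 21.9%).

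Replicates differed along the GC content of transcripts, most of all in adherent cells. Over 14060 genes, the deviation of a library from its group mean correlated with GC content at r = -0.65 in adherent shCtrl replicate 1 and 0.68 in replicate 3, and at 0.56 in adherent shSigma replicate 2 and -0.65 in replicate 3. In tumor spheres r lay between -0.37 and 0.27. These correlations are across genes of a library, and genes are not independent. CDT1 (64.3% GC in the longest transcript) and POLD1 (63.9%) had the most GC of the members and the widest spread among adherent shCtrl libraries, with coefficients of variation of 40.1% and 46.8%. Next in spread came MCM5 (27%, at 57% GC), POLA2 (24.8%, at 49.1% GC), LIG1 (21.9%, at 56.6% GC), POLE (19.5%, at 55.6% GC) and POLD2 (19.4%, at 58.7% GC). CHAF1A and MCM7, next to POLD2 in GC content at 57.7% and 57.6%, varied by 14.4% and 4.8%. With GC content smoothed out of each library, an alternative chosen after seeing the data, the adherent log2 fold change was -1.66 for CDT1 (adjusted p = 8.3e-06), -0.89 for POLD2 (9.52e-07) and -0.88 for MCM5 (0.000244). POLD1 was at -0.23 (adjusted p = 0.0971) in adherent cells and still rose in spheres (0.69, adjusted p = 3.35e-05). Between the cultures with shCtrl POLD1 turned from 0.17 to -0.62 (adjusted p = 0.00232). The part of GC content in the unsmoothed values was not tested further.

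In places the neighbours of a member on the chromosome had a shifted median fold change, in the direction of the member or against it. The median of the 40 nearest tested genes in adherent cells was 0.89 around RFC2, 0.70 around MCM7 and 0.67 around ORC5, all on chromosome 7, and -0.63 around NASP, -0.53 around ORC1 and -0.49 around CLSPN, all on chromosome 1. There NASP, ORC1 and CLSPN were lower, as their neighbours were, while RFC2 and MCM7 were lower although their neighbours were higher. ORC5 was not called in adherent cells. In spheres the values were 0.61, 0.61 and 0.70 on chromosome 7 and -0.23, -0.52 and -0.11 on chromosome 1. With these medians subtracted the adherent comparison called 44 members lower and 0 higher, and the sphere comparison 35 lower and 4 higher. In adherent cells ORC5 (-0.85, adjusted p = 0.00012), MCM5 and POLA2 (-1.01, adjusted p = 0.0139) gained a call and RFC1 lost its call. In spheres MCM10, CDC45 (-0.22), POLA2 (-0.58), FEN1 (-0.30), RPA1 (-0.20) and CHAF1A (-0.49) became lower, and POLE (-0.15, adjusted p = 0.0545), POLE2 and POLD3 (-0.16, adjusted p = 0.0526) lost their calls. The sign turned in spheres for ORC5, MCM5, RFC1, RFC2, LIG1 (-0.19) and NASP (0.18). Chromosome copy number of the lines was not measured here, and its part was not tested. Of the 51 genes 27 share exon bases with another annotated gene in GENCODE release 44, 9 with one on the same strand and 21 with one on the opposite strand, and their counts are less certain for it. Examples are MCM7 with MIR93 and AP4M1, RFC4 with EIF4A2, TYMS with ENOSF1 and POLD3 with LIPT2-AS1.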

How the data were processed

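The 12 libraries were made from total RNA with a directional library kit, per the labels, and read from 1 end; whether poly(A) RNA was selected is not given in the sources used here. The authors deposited raw counts per Ensembl gene. The submitters' processing notes name STAR 2.6.1c, DESeq and GRCh38.p12; the annotation, use of strand and handling of multiply mapped reads are not given in the sources used here. All 12 count columns were used. Total counts ranged from 16472722 to 26957777 per library.

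Symbols came from GENCODE release 44. Each comparison was fitted on its own libraries over all genes passing filterByExpr (minimum count 10), with TMM scaling and the two-sided quasi-likelihood test of edgeR 4.0.16 in R 4.3.3, prior count 0.125 and Benjamini-Hochberg adjustment, with a threshold of 0.05. Log2 levels used an offset of 0.5 CPM. The interaction used all libraries. Scripts were tested on simulated data. The level of the targeted gene is not reported here. The members and lists were chosen with earlier results of these data known. Per-library values are given for up to 4 called members at either end of each comparison and for the member with the largest F of each role; other listed genes are named by size of change, and values for further members (such as MCM7 or POLE) stand as fold changes. CDT1 and CDC45 were given per library after their values were seen. Alternatives were DESeq2 1.42.0, other scalings and filters, 1 fit of all libraries, a replicate block, leaving out each library, and subtracting neighbouring genes or transcript GC content.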

Additional observations from a re-analysis of the deposited data

Results flagged for a closer look

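For 35 of the 51 genes the knockdown difference differed between the cultures, by an interaction term fitted to the 12 libraries and edgeR's quasi-likelihood test. Among all genes tested 12.7% were positive and 15.6% negative. The calls of ORC2, ORC4, MCM5, RRM1 and CHAF1B did not hold in every fit that left out 1 library. Values are the log2 difference, tumor spheres minus adherent, and the 34 positive ones mean a more positive knockdown difference in spheres. In origin licensing they were 0.96 for ORC1, 0.95 for CDC6, 0.88 for ORC6, 0.69 for ORC3, 0.42 for GMNN, 0.41 for ORC5 and 0.3 for ORC2. ORC4, at -0.42, was the negative one. In the MCM family they were 1.47 for MCM10, 0.92 for MCM5, 0.73 for MCM8, 0.67 for MCM7, 0.55 for MCM3 and 0.54 for MCM4. CDC45 had 0.78, GINS4 0.81, GINS3 0.61 and GINS1 0.59. Among fork protection genes CLSPN had 1.69, the largest of the members, and TIMELESS 0.76. Among polymerases PRIM2 had 0.59, POLE2 0.54 and PRIM1 0.51. Among clamp, loader and maturation genes RFC3 had 0.77, LIG1 0.67, RFC4 0.58, RPA2 0.5, FEN1 0.44 and PCNA 0.35. In nucleotide synthesis RRM2 had 0.71, TYMS 0.64 and RRM1 0.42, and among histone chaperones NASP had 0.79, CHAF1A 0.67 and CHAF1B 0.28.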

How the results depend on the processing

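Over all alternatives, 3650 of 3927 values of single genes stayed on the same side of the threshold, 152 lost the call, 116 gained one and 9 reversed. A change of sign was counted as reversed only where the main fit or the alternative called the gene. The 3650 can therefore include uncalled values that changed sign. With the median of the 40 nearest genes subtracted, the sphere knockdown turned for ORC5 (-0.41), MCM5 (-0.19), RFC1 (0.31), RFC2 (-0.59), LIG1 (-0.19) and NASP (0.18). With GC content smoothed out of each library, chosen after seeing the data, POLD1 turned between cultures with shCtrl (-0.62), and MCM7 (-0.091) and CHAF1A (-0.23) with shSigma; the cause was not tested. The adherent median was -0.77 under upper-quartile scaling and -0.76 in 1 fit of all 12 libraries, where 2 members were higher in spheres. The shCtrl culture median was -0.59 with GC smoothed. With shSigma, 5 members were lower in spheres by DESeq2 and 13 with GC smoothed. Without a filter the interaction median was 0.63 and 0 members were negative. At an adjusted p under 0.01, 0 interactions were negative, and with shSigma 4 members were lower and 3 higher in spheres. Past a log2 fold change of 1, members lower and higher numbered 14 and 0 in adherent knockdown, 1 and 0 in sphere knockdown, 8 and 0 between cultures with shCtrl, 0 and 0 with shSigma, and 2 interactions were positive and 0 negative. Leaving out 1 library gave 36 to 43 lower and a median of -0.86 to -0.75 in adherent knockdown, 26 to 29 lower, 3 to 4 higher and -0.24 to -0.21 in spheres, 36 to 42 lower, 1 higher and -0.54 to -0.50 with shCtrl, 4 to 8 lower, 4 to 14 higher (14 without adherent shSigma replicate 3) and -0.087 to -0.0014 with shSigma, and 30 to 41 positive, 0 to 1 negative and 0.55 to 0.66 for the interaction. With a replicate block 38 members were lower in adherent knockdown, 27 lower and 4 higher in spheres, 38 lower and 1 higher with shCtrl, 7 lower and 10 higher with shSigma, and 31 interactions were positive and 1 negative. Same-numbered libraries did not deviate together throughout (r from -0.82 to 0.38 across genes), so the numbers were not taken as pairs. Between cultures with shSigma r was 0.26, -0.04 and 0.38 for replicates 1, 2 and 3. Deviations also followed GC content, so r cannot settle whether the libraries were paired. The lowest count of a member was 69, and precision was lowest for CDT1 and POLD1, whose adherent libraries spread most.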

Other observations

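Mitotic genes, a list of 20, also changed after knockdown. All 20 were lower in adherent knockdown cells (against 27.7% of all genes), median -1.06 on the log2 scale. In spheres 15 were lower (75%, against 30.9%) and 2 higher (10%, against 30.2%). The 2 higher were MKI67 and CENPF. MKI67 was at 216, 168 and 166 CPM in sphere shCtrl and 222, 241 and 269 CPM in sphere shSigma libraries. CENPF was at 169, 161 and 155 CPM against 195, 194 and 209 CPM. CDC20, which activates the anaphase-promoting complex, had -1.40 ± 0.08 (SE, adjusted p = 2.01e-05) in adherent cells, and cyclin B1 (CCNB1) had -1.31 ± 0.08 (SE, adjusted p = 1.97e-05). In spheres UBE2C, its ubiquitin-conjugating partner, had -1.07 ± 0.07 (SE, adjusted p = 1.87e-07) and CDK1, the mitotic kinase, -0.69 ± 0.08 (SE, adjusted p = 3.77e-05). Between cultures with shSigma, where 8 replication genes were lower and 8 higher in spheres, 17 of the 20 mitotic genes were lower (85%, against 25.2% of all genes), led by the checkpoint kinase gene BUB1 (-0.78 ± 0.07 SE, adjusted p = 0.000128) and topoisomerase TOP2A (-0.65 ± 0.06 SE, adjusted p = 0.000145). The difference between the lists was not tested.

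The E2F factors, their partners and the S phase cyclins, of which 19 of 20 were tested, are given for comparison. In adherent knockdown cells 12 were lower (63.2%, against 27.7% of all genes) and 2 higher (10.5%, against 22.3%). In spheres 7 were lower, a share (36.8%) near that of all genes (30.9%), and 3 were higher (15.8%, against 30.2%). Log2 fold changes ran from -1.74 to 0.49 in adherent cells (median -0.40) and from -1.30 to 0.51 in spheres (median -0.06). The genes named next had the lowest values in both cultures. The repressor E2F7 fell in both (-1.74 ± 0.08 SE, adjusted p = 8.16e-06, and -0.80 ± 0.10 SE, adjusted p = 4.21e-05). Cyclin E2 (CCNE2), which drives entry to S phase, was at 53.1, 46.4 and 45.2 CPM against 17.05, 15.4 and 21.03 CPM in adherent cells and at 44.97, 49.9 and 38.1 CPM against 17.6, 18.4 and 17.8 CPM in spheres. The groups were separate in both cultures, with log2 fold changes of -1.51 ± 0.12 (SE, adjusted p = 7.45e-05) and -1.30 ± 0.10 (SE, adjusted p = 3.77e-07), and its interaction did not pass (0.13 ± 0.17 SE, adjusted p = 0.613).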
